A study of Mus musculus with 5 samples.

Results

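The genes described here are 9 enzymes of NAD synthesis, Afmid, Kmo, Haao, Acmsd, Qprt, Naprt, Nmnat1, Nadsyn1 and Nampt, and Nnt, a mitochondrial transhydrogenase that uses the NADH made from this pool. They were chosen by gene symbol. All 10 of 10 were among the 35478 genes listed for each mouse kidney, and all 10 were among the 16394 that passed the filter on low counts, so none was missing from a test. RNA had been sequenced from kidneys of 2 Prdm16fl/fl mice (numbered 1 and 3 in the labels) and 3 Ksp-Cre/Prdm16fl/fl mice (numbered 1, 2 and 3), 1 library per mouse. The labels spell the genotypes PRDM16flox/flox and Ksp-Cre/PRDM16 flox/flox and name the tissue as kidney, and the methods name its cortex. Every mouse carried the floxed Prdm16 allele, with loxP sites around exon 9. The sample titles call all mice C57BL/6J, and the strain field of the same labels gives C57BL/6J;129. The 3 Ksp-Cre/Prdm16fl/fl mice also carried Cre under the Ksp promoter, which is active in tubular epithelial cells and not in every cell of the kidney. All 5 mice were males of 7 to 8 weeks. All had unilateral ischemia-reperfusion injury (UIRI): the left renal pedicle was clamped for 35 minutes at 38.5°C, the right kidney was taken out on day 10, and tissue was collected 24 hours later, on day 11. The genotypes are called control and Ksp-Cre from here on. There was no uninjured group, so every comparison is between genotypes within injured kidneys.

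NAD is made along routes that meet near their end. In the de novo route tryptophan is oxidised through kynurenine to quinolinate, which is joined to a ribose phosphate to give nicotinic acid mononucleotide. The Preiss-Handler route makes the same mononucleotide from nicotinic acid, and the salvage route makes nicotinamide mononucleotide from the nicotinamide that sirtuins, PARPs and CD38 release. Proximal tubule cells are known for expressing enzymes of the de novo route, and NAD supply in the kidney is known to be sensitive to ischemia.

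Total counts were between 14939040 and 16425161 per mouse. The targeted gene, Prdm16, was counted over the whole gene and not by exon. Its level was 25.3 and 20.02 counts per 1000000 after TMM normalization (CPM) in the control mice and 17.1, 17.0 and 18.0 CPM in the Ksp-Cre mice, and the difference did not pass the test (log2 fold change -0.38, adjusted p = 0.259, quasi-likelihood test of edgeR), so the count is no sharp check of the genotypes. Ksp-Cre mouse 3 stood apart: its correlation with the other libraries across genes was 0.936 to 0.955, where every other pair gave 0.968 to 0.990. For the NAD synthesis genes and Nnt, values that rest on it are given mouse by mouse or with and without it. The proximal tubule markers showed kidney tubule RNA in all 5 libraries. Their 15 genes summed to 17680 and 20350 CPM in the control mice and to 7734 to 10970 CPM in the Ksp-Cre mice, and none was at 0. In whole tissue, fewer cells of a type and less RNA per cell cannot be told apart.

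Calls were made at an adjusted p under 0.05 (Benjamini-Hochberg, over all 16394 genes tested). Of the 10 genes, 2, Afmid and Haao, were lower in injured kidneys of Ksp-Cre mice than in those of control mice, and 0 were higher. Over all genes tested, 0.872% were called lower and 0.104% higher. At an unadjusted p under 0.05, 6 of the 10 were lower (Afmid, Kmo, Haao, Acmsd, Nmnat1 and Nnt) and 0 were higher, where 11.2% of all genes tested were lower and 7.64% higher at that level. For 8 of the 10, all 3 Ksp-Cre mice were below both control mice, a separation that 21.3% of all genes tested showed in that direction. The other two, Qprt and Nampt, overlapped between the genotypes. DESeq2 called 4 of the 10 lower, adding Kmo and Nnt, and called 3.37% of 25633 genes lower and 1.18% higher. Without Ksp-Cre mouse 3, edgeR called 6 of the 10 lower, adding Kmo, Acmsd, Nmnat1 and Nnt, and called 11% of 16196 genes lower and 7.82% higher. Without any other mouse it called 0 of the 10, as it called 0 genes in all, with 5 or 6 of the 10 lower at an unadjusted p under 0.05.

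**Figure D1:**
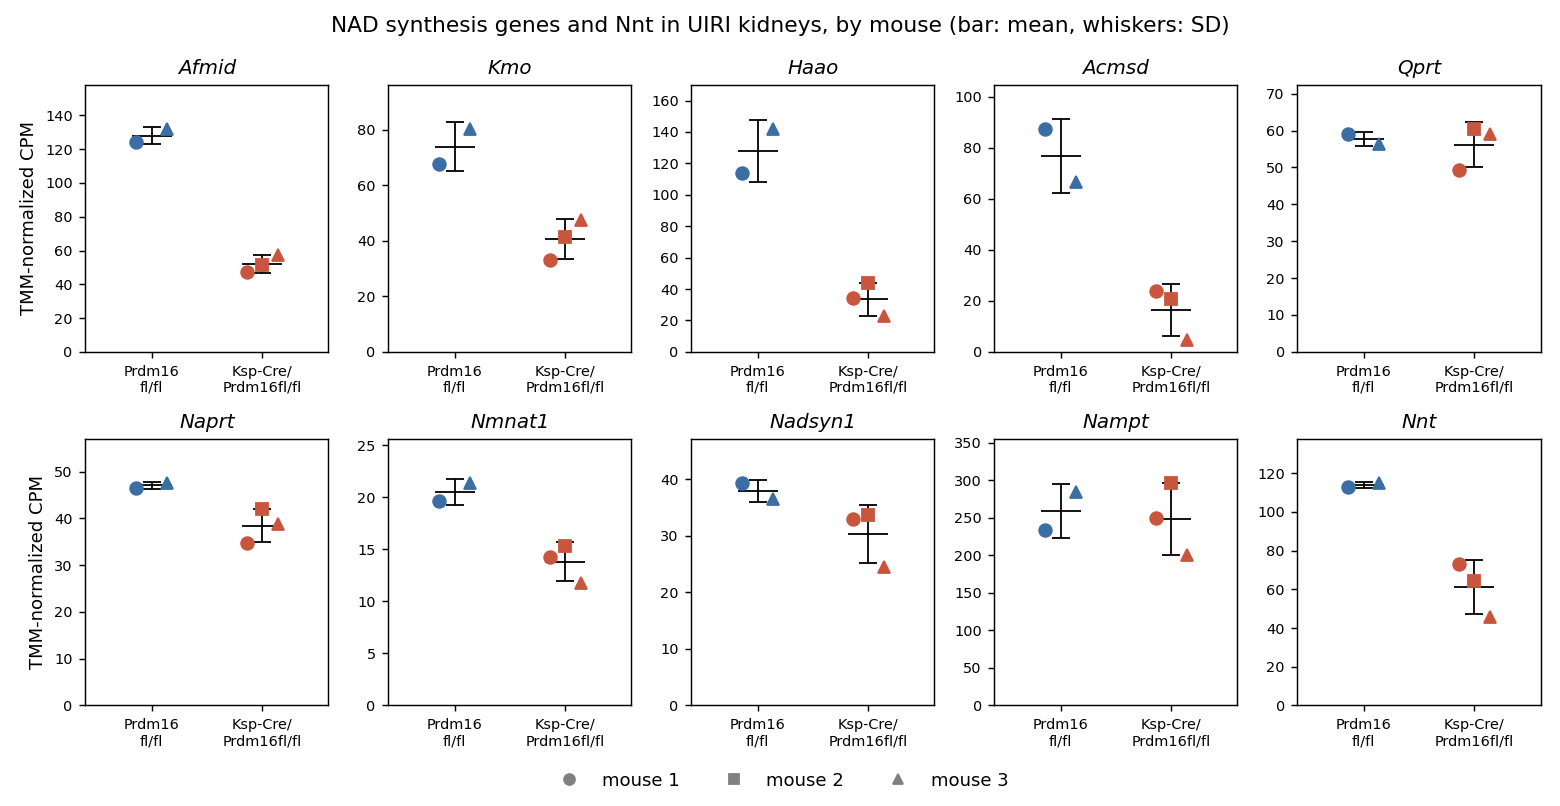
TMM-normalized CPM of each gene (vertical axes, each from 0) in the 2 Prdm16fl/fl UIRI mice (blue) and the 3 Ksp-Cre/Prdm16fl/fl UIRI mice (red), with marker shape for the mouse number, a bar for the group mean and whiskers for the SD. Groups are separate in all panels but those of Qprt and Nampt, and mouse 3 is the lowest of the Ksp-Cre/Prdm16fl/fl mice for Haao, Acmsd, Nmnat1, Nadsyn1, Nampt and Nnt.

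The largest differences were in the de novo route upstream of quinolinate. Afmid encodes kynurenine formamidase, which turns N-formylkynurenine into kynurenine near the top of the route. It is listed on the plus strand of chromosome 11 from 117716329 to 117730734, in the coordinates of the files. Its level was 124.4 and 131.7 CPM in control mice 1 and 3, and 47.0, 51.4 and 57.3 CPM in Ksp-Cre mice 1, 2 and 3. The groups were far apart and the mice of each group close together, so that Afmid was 2.47-fold lower with a narrow interval (log2 fold change -1.30, 95% interval -1.61 to -1.002, adjusted p = 0.0327 from edgeR). The call was kept in 9 of 16 other settings and lost, among others, without either control mouse (adjusted p = 0.261 and 0.496) and without Ksp-Cre mouse 1 or 2 (adjusted p = 0.106 and 0.136). Of its 6589 bp of exon, 423 bp (6.42%) overlap exons of Tk1 on the opposite strand. Tk1 held 273 to 623 counts per library and Afmid 828 to 1845, and whether counting used the strand is not given in the sources used here.

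Kmo encodes kynurenine 3-monooxygenase of the outer mitochondrial membrane, the next oxidation step (chromosome 1, 175459759 to 175488419, plus strand). It measured 67.8 and 80.1 CPM in the control mice against 33.3, 41.4 and 47.5 CPM in the Ksp-Cre mice. The groups did not overlap, and the mean was 55.0% of that in control mice (log2 fold change -0.86, 95% interval -1.29 to -0.44). This did not pass the adjusted threshold (adjusted p = 0.0765 from edgeR), although it did in 3 of 16 other settings: without the filter on low counts (adjusted p = 0.0476), with DESeq2 (adjusted p = 0.00414) and without Ksp-Cre mouse 3 (adjusted p = 0.00227).

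Haao encodes 3-hydroxyanthranilate dioxygenase, whose unstable product either closes to quinolinate or is led away by Acmsd (chromosome 17, 84138777 to 84157589, minus strand). Haao measured 114.0 and 141.6 CPM in the control mice and 34.1, 43.7 and 22.7 CPM in the Ksp-Cre mice. Even the highest Ksp-Cre mouse was far below the lower control mouse, and the mean was 3.81-fold lower (log2 fold change -1.93, 95% interval -2.59 to -1.27, adjusted p = 0.0443 from edgeR). The call sat close to the threshold and was lost in 12 of 16 other settings, among them upper quartile scaling (adjusted p = 0.0523) and the fits without either control mouse (adjusted p = 0.261 and 0.517) or without Ksp-Cre mouse 1 or 2 (adjusted p = 0.131 and 0.136), while the log2 fold change kept its sign and size, from -2.19 to -1.68.

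Acmsd encodes the decarboxylase that takes the same intermediate away from quinolinate, and so away from NAD (chromosome 1, 127657150 to 127695301, plus strand). Its level was 87.2 and 66.5 CPM in the control mice and 23.8, 20.8 and 4.73 CPM in the Ksp-Cre mice. The groups did not overlap, and mouse 3, with 71 counts, lay well below the other two Ksp-Cre mice. Acmsd had the largest fold change of the 10 genes and also the widest interval (log2 fold change -2.22, 95% interval -3.64 to -0.80, adjusted p = 0.126 from edgeR). Without mouse 3 the fold change was smaller and passed the threshold (log2 fold change -1.78, adjusted p = 0.000413).

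Qprt encodes quinolinate phosphoribosyltransferase, the enzyme that brings quinolinate into the NAD routes (chromosome 7, 126706942 to 126721201, minus strand). It was 59.0 and 56.4 CPM in the control mice and 49.3, 60.3 and 59.0 CPM in the Ksp-Cre mice. These values overlapped, and the interval of the log2 fold change ran from -0.35 to 0.28 around -0.04 (adjusted p = 0.899 from edgeR), so differences as large as those of Afmid, Kmo, Haao and Acmsd lay outside it. Its interval did not meet those of these 4 genes. The sign of its small difference turned with the scaling, to 0.07 with library size scaling and 0.20 on the log2(TPM + 1) scale, where the median of all genes was 0.15 and 0.23.

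Because Qprt and Acmsd act on either side of the same branch, their ratio was taken within each library, where it does not depend on the scaling of libraries. The log2 ratio of Qprt to Acmsd CPM was -0.56 and -0.24 in control mice 1 and 3, where Acmsd had more counts than Qprt. In Ksp-Cre mice 1, 2 and 3 it was 1.05, 1.53 and 3.63. The groups were separate, with a difference of 2.47 on the log2 scale (two-sided exact permutation test, p = 0.2, the smallest that 2 and 3 mice allow over 10 splits). It was 1.69 without Ksp-Cre mouse 3.

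**Figure D2:**
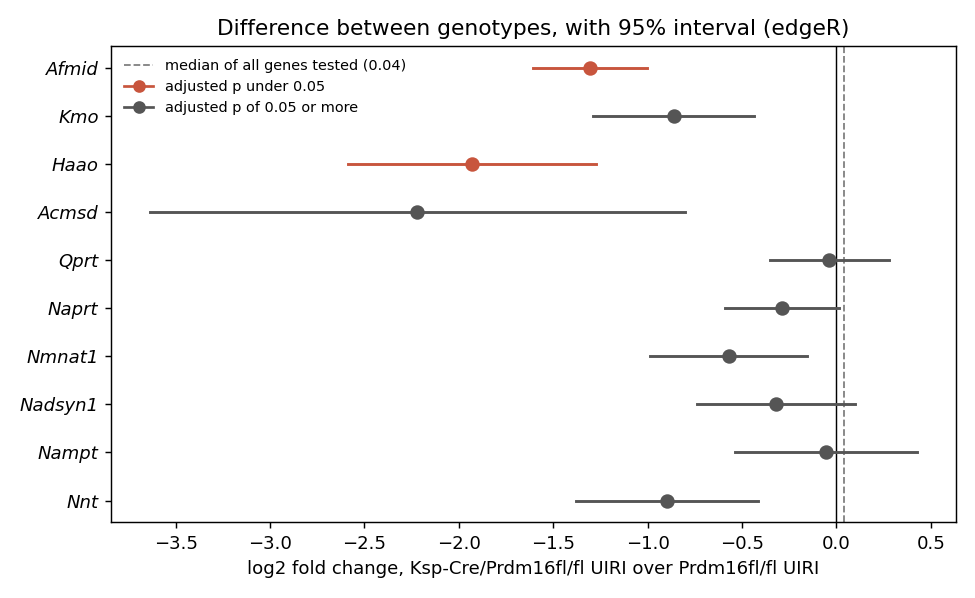
Log2 fold change of each gene between Ksp-Cre/Prdm16fl/fl UIRI and Prdm16fl/fl UIRI mice (horizontal axis) from edgeR, with lines for the 95% interval, in red at an adjusted p under 0.05, and a dashed line at the median of all genes tested, 0.04. Afmid, Haao, Acmsd, Kmo, Nnt and Nmnat1 have intervals wholly below 0, and those of Qprt, Naprt, Nadsyn1 and Nampt include 0.

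The sequences upstream of the de novo genes are shown to set Haao and Kmo, lower in all Ksp-Cre mice than in both control mice, beside Qprt, whose groups overlapped. Haao and Kmo are shown because they hold the run described here, and Afmid, also lower in all Ksp-Cre mice, does not hold it. The windows printed are the 250 bases before the RefSeq start of each gene on the gene's strand in GRCm38.p6, a build whose coordinates differ from those of the files. The run TTTGACC is in capitals. It holds TGACC, part of the half-site that many nuclear receptors bind, and it was picked after the sequences had been read. The shorter TGACC is also in the Qprt window, and GGTCA, its form on the opposite strand, is in those of Nampt and Nmnat1. TGACC alone was thus not limited to genes whose groups were separate.
Haao, chr17:83846791-83847040, minus strand: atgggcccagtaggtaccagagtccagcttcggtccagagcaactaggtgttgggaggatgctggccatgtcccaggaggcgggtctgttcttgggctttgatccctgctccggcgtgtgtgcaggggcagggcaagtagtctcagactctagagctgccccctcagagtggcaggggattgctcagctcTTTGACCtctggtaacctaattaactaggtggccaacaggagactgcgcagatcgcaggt
Kmo, chr1:175631943-175632192, plus strand: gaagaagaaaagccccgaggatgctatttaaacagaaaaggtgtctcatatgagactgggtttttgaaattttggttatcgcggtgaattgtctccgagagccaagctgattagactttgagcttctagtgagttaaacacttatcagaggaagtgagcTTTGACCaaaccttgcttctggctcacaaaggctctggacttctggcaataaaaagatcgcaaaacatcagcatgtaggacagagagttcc
Qprt, chr7:127122030-127122279, minus strand: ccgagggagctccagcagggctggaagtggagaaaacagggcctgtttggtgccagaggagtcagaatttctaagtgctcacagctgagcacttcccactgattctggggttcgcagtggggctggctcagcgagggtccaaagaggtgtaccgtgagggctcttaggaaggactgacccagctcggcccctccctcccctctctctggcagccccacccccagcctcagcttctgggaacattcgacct
TTTGACC starts 60 and 91 bases before the start of Haao and Kmo, each time on the gene's strand, and it is in neither the Qprt window nor those of Afmid, Nmnat1, Nadsyn1 and Nampt, so that genes whose groups were separate and lower were found with and without it. Of 7 of the 10 genes whose RefSeq windows were searched, 2 held it on either strand, against 2.25% of 32851 promoter windows of the same length. Because TTTGACC was picked from these windows, this comparison cannot show whether it is more frequent in them. The runs AAGGTCA and CACGTG were in 0 of the 7 and in 4.08% and 6.02% of all windows, and GTTAAT was in 1, Haao, and in 6.43%. TTTGACC and AAGGTCA share GGTCA when read on opposite strands and can overlap. A match is a description of letters in this window only.

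The other enzymes that act on kynurenine and its products showed the same direction. Of 8 such genes, 6 could be tested, and all 6 had a negative log2 fold change with groups that did not overlap (median -0.93, against 0.04 over all genes tested). Kyat1, a kynurenine aminotransferase that makes kynurenic acid, was called lower, from a mean of 151.5 to 75.5 CPM (log2 fold change -1.01, adjusted p = 0.0412 from edgeR). The call was kept in 5 of 16 other settings and lost with library size scaling, in the TPM fits, with either trend on gene length removed, with the mouse number as a block, and without any mouse but Ksp-Cre mouse 3, while the log2 fold change stayed between -1.11 and -0.75. Aadat and Kyat3, which share that activity, had log2 fold changes of -1.47 and -0.85, and Kynu, the kynureninase between Kmo and Haao, -0.48, none of them past the adjusted threshold. Ido2 had -3.07 at low counts. Tdo2 and Ido1, the dioxygenases that start the route from tryptophan, had at most 5 counts in any library and were not tested, so a change in them was not detectable at this depth.

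The Preiss-Handler genes differed less. Naprt, which joins nicotinic acid to ribose phosphate (chromosome 15, 75762812 to 75766330, minus strand), was 46.5 and 47.6 CPM in the control mice and 34.7, 41.9 and 38.8 CPM in the Ksp-Cre mice. The CPM values did not overlap, but the difference was small (log2 fold change -0.29, 95% interval -0.59 to 0.01, adjusted p = 0.284 from edgeR). On the deposited TPM scale, which is made without TMM, the groups overlapped, at 52.4 to 56.5 TPM against 49.0 to 59.4 TPM. The length of a gene is the same for every mouse, but TPM divides each library by its own total of length-scaled counts. That total differs between mice and can change their order. Which part of the scaling made the groups overlap in TPM was not tested. Ksp-Cre values ran higher across genes on that scale, with a median difference of 0.23 in the log2(TPM + 1) fit against 0.04 in the main test.

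Nmnat1 encodes the nuclear adenylyltransferase that all routes share for nuclear NAD (chromosome 4, 149552026 to 149569667, minus strand), and it had 176 to 298 counts per library. It was 19.6 and 21.4 CPM against 14.3, 15.4 and 11.7 CPM, with no overlap (log2 fold change -0.57, 95% interval -0.98 to -0.15, adjusted p = 0.16 from edgeR). It passed the threshold in 1 of 16 other settings, without Ksp-Cre mouse 3 (adjusted p = 0.0392). Nadsyn1, the synthetase that amidates the Preiss-Handler product to NAD (chromosome 7, 143349326 to 143376598, minus strand), was 39.3 and 36.5 CPM against 32.9, 33.7 and 24.5 CPM. Its interval included 0 (log2 fold change -0.32, 95% interval -0.74 to 0.10, adjusted p = 0.372 from edgeR). Its groups overlapped in TPM, the scale with the upward shift given for Naprt.

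Nampt, the rate-limiting enzyme of salvage from nicotinamide (chromosome 12, 32870334 to 32903368, plus strand), was 233.6 and 284.1 CPM in the control mice and 250.3, 296.3 and 200.4 CPM in the Ksp-Cre mice. The highest and the lowest of the 5 mice were both Ksp-Cre mice. The log2 fold change was -0.06 with an interval from -0.54 to 0.43 (adjusted p = 0.905 from edgeR), so differences up to those sizes in either direction were not excluded. The sign of this small difference turned too, to 0.07 and 0.17 on the same scales. Within libraries, the log2 ratio of Nampt to Naprt was 2.33 and 2.58 against 2.85, 2.82 and 2.37, which overlapped (difference 0.23, two-sided exact permutation test, p = 0.4). The overlap rested on Ksp-Cre mouse 3, at 2.37, as Ksp-Cre mice 1 and 2 were above both control mice. The tested genes whose pattern over the 5 mice was closest to that of Nampt, by root mean square distance of centred log2 CPM among 13994 genes, were Cd86 (0.013), Hoxa11os (0.033) and Dact1 (0.047).

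Compared per length, Nampt and Qprt had the highest levels in both genotypes. In control mice mean TPM was 124 ± 8.59 for Nampt and 105.6 ± 10.6 for Qprt (SD, n = 2 mice), followed by Acmsd at 73.5, Nnt at 68.3 and Kmo at 64.6, whose neighbouring ranges overlapped in part. Haao at 58.4 and Naprt at 54.4 overlapped, and Afmid at 42.5, Nadsyn1 at 30.2 and Nmnat1 at 18.3 TPM closed the order. In Ksp-Cre mice Nampt (142.6 ± 34.9) and Qprt (121.1 ± 12.5 TPM, SD, n = 3 mice) overlapped at the top. Afmid at 20.3, Acmsd at 18.9, Haao at 18.4 and Nmnat1 at 14.7 TPM now lay at the bottom, each overlapping the next. Between them stood Naprt at 52.6, Nnt at 43.7 and Kmo at 41.9, which overlapped, and Nadsyn1 at 28.7 TPM. Acmsd was at rank 3 of 10 in control mice and at rank 8 in Ksp-Cre mice.

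Nnt encodes the proton-translocating transhydrogenase of the inner mitochondrial membrane, which makes NADPH for glutathione and thioredoxin reduction in the matrix (chromosome 13, 119472063 to 119545793, minus strand). It was 112.8 and 114.9 CPM in the control mice and 72.9, 64.4 and 45.9 CPM in the Ksp-Cre mice. The control mice were nearly equal and all Ksp-Cre mice were below them, at 53.7% of their mean (log2 fold change -0.90, 95% interval -1.38 to -0.41, adjusted p = 0.0914 from edgeR). It passed with DESeq2 (adjusted p = 0.00656) and without Ksp-Cre mouse 3 (log2 fold change -0.72, adjusted p = 0.00295). C57BL/6J mice are known to carry a deletion of several Nnt exons that 129 mice lack, and the labels disagree on the background, C57BL/6J in the titles and C57BL/6J;129 in the strain field. The files give a single count per mouse over the 17 exon intervals listed for the gene. Whether these intervals include the deleted exons was not tested. Which allele each mouse carried, and its part in this difference, was not tested either. Of the 3 tested genes on each side of Nnt on chromosome 13, 0 of 6 were called and 1, Fgf10, was at an unadjusted p under 0.05. The nearest, Paip1, had a log2 fold change of -0.09 (95% interval -0.34 to 0.16). Mrps30, Gm10732 and 3110070M22Rik had -0.26, -0.13 and -0.68, and 4833420G17Rik and Fgf10 had 0.12 and 1.72, Fgf10 at a mean of 0.308 CPM in control mice. The genes with the pattern closest to that of Nnt were Pdzk1ip1 (distance 0.036), Gm32006 (0.047) and Uqcrh (0.060), of which Uqcrh is a subunit of respiratory complex III.

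Of 13 other genes of mitochondrial NADPH supply and use, 0 were called with edgeR and 5 were lower and 0 higher at an unadjusted p under 0.05 (median log2 fold change -0.35). DESeq2 called 5 of them lower and 0 higher. Prdx5, a mitochondrial and peroxisomal peroxiredoxin, had a log2 fold change of -1.11 (adjusted p = 0.0541 from edgeR), and Idh2, the NADPH-making isocitrate dehydrogenase of the matrix, -0.78 (adjusted p = 0.0911 from edgeR). In the fit of deposited TPM values the median of this list was -0.08, where that of all genes was 0.23.

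The genes that bring in precursors, use NAD or recycle it gave 0 calls with edgeR. DESeq2 called 1 gene lower and 0 higher in each of these lists. Among 6 precursor transporters, 1 was lower at an unadjusted p under 0.05 (median log2 fold change -0.26). It was Slc5a8, a sodium-coupled carrier of nicotinic acid, with -1.10 (adjusted p = 0.0564 from edgeR), and Slc22a13 had -1.78 with widely spread mice. Of 9 other salvage and phosphorylation genes 7 were tested, and 1 was lower at an unadjusted p, Nadk2, the mitochondrial NAD kinase, with -0.51 (adjusted p = 0.0836 from edgeR). Pnp had 0.40, and the median was -0.02. Of 21 NAD consumers and nicotinamide-clearing enzymes 20 were tested, with 2 lower and 4 higher at an unadjusted p and a median of 0.20. Sirt3, the main deacetylase of the matrix, had -0.95 (adjusted p = 0.0541 from edgeR) and Nnmt, which methylates nicotinamide, had 0.98 at low CPM (adjusted p = 0.194 from edgeR).

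**Figure D3:**
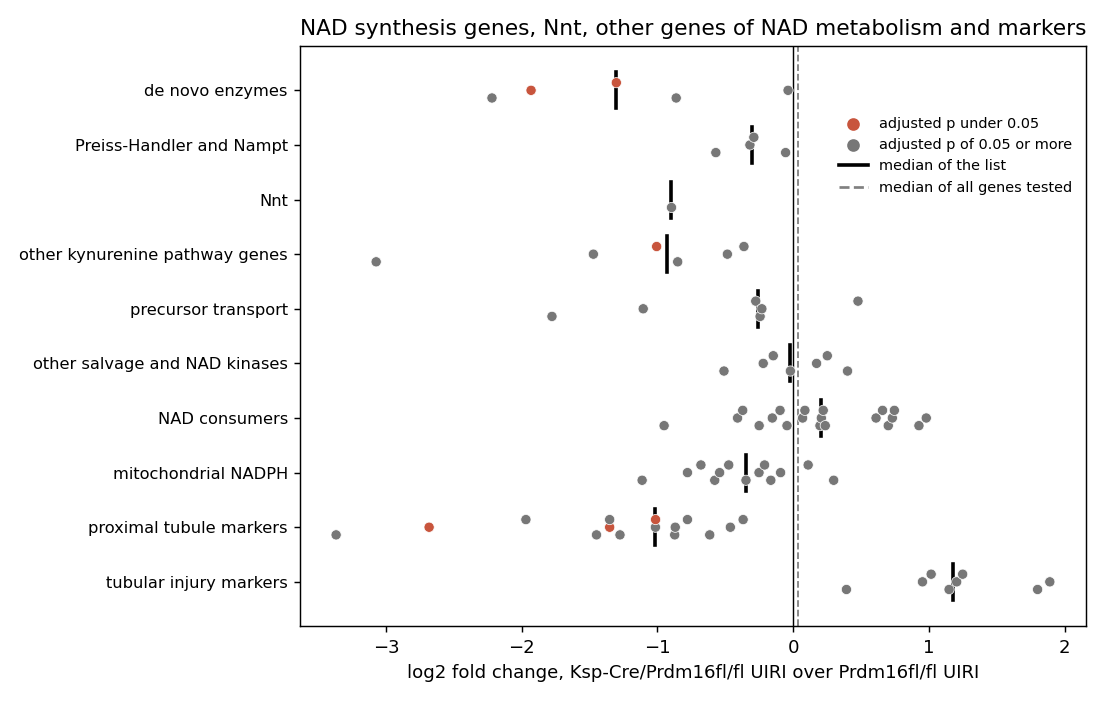
Log2 fold change between Ksp-Cre/Prdm16fl/fl UIRI and Prdm16fl/fl UIRI mice (horizontal axis) for the tested genes of each list (1 point per gene, red at an adjusted p under 0.05), with a black bar for the list median and a dashed line for the median of all genes tested. The 5 de novo enzymes, 6 other kynurenine pathway genes and 15 proximal tubule markers lie at or below 0, while the NAD consumers lie on both sides and the 8 tubular injury markers above 0.

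Levels of cell type markers differed in the same comparison. All 15 proximal tubule markers had negative log2 fold changes (median -1.01), and 3 were called lower: Slc22a8, an organic anion transporter (-2.68), Ggt1, gamma-glutamyltransferase of the brush border (-1.35), and Fbp1, the gluconeogenic bisphosphatase (-1.01). The 8 tubular injury markers all had positive values (median 1.18), with 0 called with edgeR and 7 higher at an unadjusted p under 0.05, led by Lcn2 (1.89) and Sox9 (1.80). Ksp-Cre mouse 3 was far above the others for Lcn2 and Sox9. Lcn2 was 109.8 and 94 CPM in control mice and 271.9, 204 and 657.6 CPM in Ksp-Cre mice 1, 2 and 3. Sox9 was 22.25 and 19.37 CPM against 38.26, 47.85 and 131.7 CPM. The summed level of the 8 markers was 14960 and 15520 CPM in control mice against 32050 to 38010 CPM in Ksp-Cre mice. Of the other tubule segments, 16 of 16 markers were negative with list medians between -1.0 and -0.60 and 0 called with edgeR, though 6 were lower at an unadjusted p. Of 4 podocyte markers 1, Nphs1, was called lower (-0.85). Fibroblast, macrophage and red blood cell markers had medians of 0.54, 0.26 and 3.78, endothelial markers of -0.14 (0.08 on the log2(TPM + 1) scale) and lymphocyte markers of -0.35, and 0 of these were called with edgeR, where 4, 1 and 4 of the first 3 lists were higher and 1 of the endothelial list was lower at an unadjusted p. The 4 red blood cell genes summed to 6.61 and 10.7 CPM in control mice and to 39.4 to 147.3 CPM in Ksp-Cre mice. Of 15 clock genes 2 were called lower, Ciart (-2.18) and Tef (-0.82), and 0 higher, but the list went both ways, with 8 negative and 7 positive values, a median of -0.08, and 5 lower and 2 higher, Npas2 (1.48) and Bhlhe41 (0.49), at an unadjusted p. The time of day of collection is not given in the sources used here. The part of these shifts in the levels of the NAD genes was not tested beyond the comparison that follows.

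Each gene was set against the mean log2 CPM of the 15 proximal tubule markers in the same library. Relative to the control mean, that marker level was -1.31, -1.05 and -1.86 on the log2 scale in Ksp-Cre mice 1, 2 and 3. The median of the 15 markers was less low, at -1.05, -1.03 and -1.67. Differences from the mean below thus depend in part on the lowest markers. Kmo in mouse 1, at -1.15 from its control mean, was below that median. Measured against the markers, Afmid overlapped between genotypes (difference 0.10, two-sided exact permutation test, p = 1), at -0.14, -0.26 and 0.70 in Ksp-Cre mice 1, 2 and 3 from the control mean. The overlap and the sign rested on mouse 3: without it the difference was -0.20 with separate groups. Haao and Acmsd were lower relative to the markers in all 3 Ksp-Cre mice, with differences of -0.57 and -1.11 on the log2 scale. The other 7 genes were higher relative to the markers in all 3 mice: Qprt by 1.36, Nampt by 1.34, Naprt by 1.11, Nadsyn1 by 1.07, Nmnat1 by 0.83, Kmo by 0.54 and Nnt by 0.48. For these 9 genes the groups did not overlap and the exact two-sided p was 0.2, the smallest that 2 and 3 mice allow, so none could pass a threshold of 0.05. Acmsd in mouse 3 stood out, at -2.14 from the control mean on this scale, where mice 1 and 2 were at -0.37 and -0.82, and without mouse 3 its difference was -0.60. Without mouse 3 the difference of Kmo was 0.19 in place of 0.54. The other 7 of these 9 genes kept their sign and separate groups without it, at -0.54 for Haao and 0.45 to 1.26 for the rest.

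**Figure D4:**
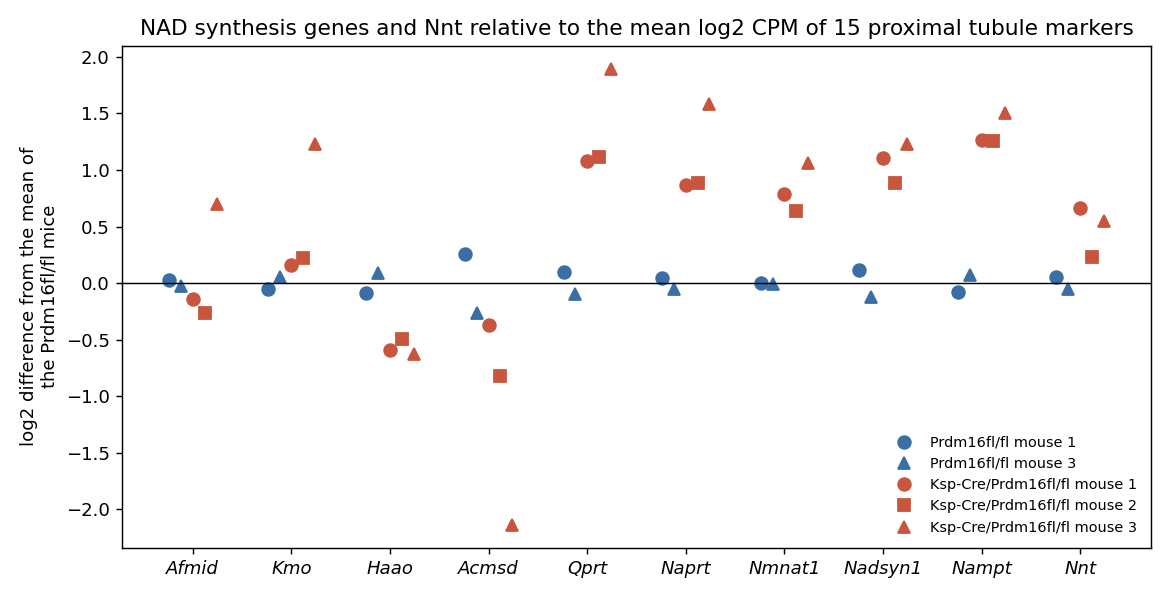
Log2 CPM of each gene minus the mean log2 CPM of 15 proximal tubule markers in the same mouse, centred on the Prdm16fl/fl mean (vertical axis, 1 point per mouse, blue for Prdm16fl/fl UIRI and red for Ksp-Cre/Prdm16fl/fl UIRI). Haao and Acmsd lie below 0 in all 3 Ksp-Cre/Prdm16fl/fl mice, Afmid lies on both sides, and the other 7 genes lie above 0.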

How the data were processed

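Kidney RNA-seq libraries of 5 mice were grouped by the genotype in the labels. The authors deposited a raw count per gene and mouse, with TPM and FPKM values that the authors made from it by scaling to gene length and library total. Per the labels, counts came from featureCounts 2.0.1, and CASAVA and DESeq2 1.16.1 are also named. The only build named in the submitters' notes is hg38, a human build, while genes and coordinates are those of mouse. The aligner is not given in the sources used here. The methods describe oligo(dT)-selected mRNA. FPKM values were not used. Positions are those of the files. Lines of 5 genes were broken and were rejoined. Of 35478 genes, 9845 were at 0 in all mice. Mitochondrially encoded genes were not analysed here.

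Counts were filtered with filterByExpr, scaled by TMM and tested with the quasi-likelihood test of edgeR 4.0.16 (R 4.3.3) over 16394 genes without covariates. CPM is per 1000000 TMM-scaled counts. Single values were tested by exact permutation over mice. Total counts of 14939040 to 16425161 limit genes with few counts, and the precision of the others rests on the spread between 5 mice. No 2 libraries were duplicates (chi-square per degree of freedom at least 9.89). The labels name separate mice. The alternatives were DESeq2 1.42.0, library size or upper quartile scaling, 2 other filters, limma 3.58.1 on log2(TPM + 1) and log2(TPM + 0.1) for genes at a TPM of at least 1 in 2 libraries and on log2(TPM + 1) without that filter, removal of a loess trend on gene length (span 0.3), each mouse left out, and the mouse number as a block. A trend on length and GC content was added after seeing the data. The mouse numbers were not used to pair the samples in the main test, and whether they mark pairs is not given in the sources used here. The genes and lists were chosen with earlier results of these data known. Genes named are the 10 genes, those of each list that were called or otherwise had the largest fold changes, the 3 genes closest in pattern to Nnt and Nampt, and the 3 tested genes on each side of Nnt. Not all are printed for the marker lists, and Kynu, Kyat3 and others named beyond the rule were chosen after their values were seen. The upstream window of Acmsd is not reported here, and those of Naprt and Nnt were not analysed here. The tests were first tested on simulated data. Python 3.11.15, pandas 2.3.3, scipy 1.17.1 and matplotlib 3.10.9 were also used.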

Additional observations from a re-analysis of the deposited data

How the results depend on the processing

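Across 16 other settings, the log2 fold changes of Afmid, Kmo, Haao, Acmsd, Naprt, Nmnat1, Nadsyn1 and Nnt stayed negative. Those of Qprt and Nampt, near 0 in the main test, turned positive in some: 0.071 and 0.067 with library size scaling, 0.195 and 0.171 with limma on log2(TPM + 1) with or without the filter, and 0.196 and 0.172 on log2(TPM + 0.1). Qprt was 0.186 with the length trend removed and 0.162 with length and GC content removed. With each mouse left out, Qprt ranged from -0.091 to 0.049 and Nampt from -0.198 to 0.091. Library size scaling and the 2 filtered TPM fits also moved the median of all genes, to 0.15, 0.23 and 0.26, and all 10 genes lay below the median in each. Below it were 8 of the 10 on unfiltered TPM values, 9 with either trend removed, and 9 or 10 with each mouse left out. In the TPM fits the endothelial list median turned to 0.081 and 0.084. The number of the 10 genes called lower was 2 in the main test, 4 with DESeq2, 1 with library size scaling, upper quartile scaling, either trend removed or limma on log2(TPM + 1), 0 on log2(TPM + 0.1) or on log2(TPM + 1) without the filter (5 lower at an unadjusted p under 0.05 in each), and 0 to 6 with each mouse left out. With the mouse number as a block, 0 of the 10 and 0 genes in all were called by edgeR, with 6 of the 10 lower at an unadjusted p, and Afmid and Haao had log2 fold changes of -1.30 and -2.19. The deviations of same-numbered mice from their group means had r = -0.0033 for mice 1 and -0.022 for mice 3. With 2 control mice, their deviations mirror each other, so these r values cannot show whether the numbers pair the samples. The number of the 10 genes with separate, lower groups was 8 in the main test, where 21.3% of all genes tested were so, and 6 to 8 elsewhere. The share over all genes is not given for the other settings, and groups separate more easily with a mouse left out. The log2 ratio of Qprt to Acmsd differed by 1.69 to 2.98, and that of Nampt to Naprt by 0.10 to 0.38, with each mouse left out. The number of genes called in all was 160 (143 lower, 17 higher), 1166 with DESeq2 (863 lower, 303 higher), 471 without the filter, 51 with library size scaling (37 lower, 14 higher), 46 and 43 with limma on filtered TPM values (26 and 23 lower, 20 higher in each), 33 and 43 with the trends removed, 0 on unfiltered TPM values and 3053 without Ksp-Cre mouse 3 (1787 lower, 1266 higher), and 0 without any other mouse (1330 to 2514 at an unadjusted p). Leaving that mouse out removed 1 library that stood apart, and the cause of its difference was not tested. DESeq2 also called more genes of the other lists. It called lower 8 proximal tubule markers, 4 other kynurenine pathway genes, 5 clock genes and 3 podocyte markers. It also called lower 2 thick ascending limb and 2 intercalated cell markers. Called higher were 7 tubular injury and 4 red blood cell markers, and 1 gene each of the clock, fibroblast and macrophage lists. Of the genes of the other lists called in the main test, Slc22a8 and Ciart stayed called in 10 of 16 settings, Ggt1 in 9, Nphs1 in 6 and Fbp1 and Tef in 5, with negative values in all. Depth limits Tdo2, Ido1, Nmrk2, Nmnat2 and Sarm1, which were not tested.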
